A study of Rattus norvegicus with 6 samples.

Results

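The genes described here carry out or organise the recovery of phosphate and bicarbonate by the proximal tubule of the kidney. They are the sodium-phosphate cotransporter genes Slc34a1, Slc34a3, Slc20a1 and Slc20a2, the sodium-proton exchanger gene Slc9a3, the sodium-bicarbonate cotransporter gene Slc4a4, the scaffold genes Slc9a3r1 (current symbol Nherf1) and Pdzk1, and the organic anion carrier genes Slc17a1 and Slc17a3. The 10 genes were chosen by function, with earlier results of these data known. Their probes were found by the RefSeq transcript that the array files give for each probe. They hold 19 of the 61537 probes on each array, and all 10 genes were among the 29647 features tested. Cortex was taken from the kidneys of male Sprague-Dawley rats, bought at 5 weeks of age, and profiled on 1 single-colour Agilent array per animal. One group of 3 rats received 1000 mg/kg/day of the solvent dipropylene glycol (DPG), and the control group of 3 rats received water. Both treatments lasted 4 weeks. The animals of each group are separate rats, all of 1 strain and sex.

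In the proximal tubule, phosphate enters the cell from the urine through sodium-coupled carriers in the brush border. Scaffold proteins with PDZ domains hold these carriers in place, and parathyroid hormone and the bone hormone FGF23 lower phosphate uptake by drawing them out of the membrane. Bicarbonate is recovered when the exchanger NHE3, the product of Slc9a3, secretes protons into the urine, carbonic anhydrases convert the filtered bicarbonate, and the cotransporter NBCe1, the product of Slc4a4, returns it to the blood across the basolateral membrane.

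No member passed the adjusted threshold, and neither did any other feature. Slc4a4 and Slc34a3 had lower signal in all 3 DPG arrays than in any control array, with log2 fold changes (DPG over control) of -0.30 for each. The other 8 members overlapped between the groups, with log2 fold changes between -0.11 and 0.14. Of the 10 members, 2 passed an unadjusted p of 0.05 (20%), both lower in DPG, where 12.4% of all features passed in either direction, 6.68% as higher and 5.7% as lower. Those same 2 members (20%) had no overlap between the groups, against 19.7% of all features (10.7% higher and 8.96% lower in DPG). The median log2 fold change was -0.05 over the members and 0.0035 over all features. The adjusted threshold was passed by 0 of 29647 features in limma at an adjusted p of 0.05 (0%), with 3669 past an unadjusted p of 0.05 and a smallest adjusted p of 0.125. Leaving out DPG 2 brought that adjusted count to 1, the transcript XM_344619, which is no member and is named after its values were seen.

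The promoters of Slc4a4 and Slc34a3 are shown because these are the members without overlap between the groups, though neither passed the adjusted threshold. That of Slc34a1 is shown because it is the paralogue of Slc34a3 whose groups overlapped. Each runs from 250 bases before to 50 bases after the start of the gene in RefSeq on the assembly GRCr8, read 5′ to 3′ on the strand of the gene, which is the minus strand for all of them. The windows are chr14:19468233-19468532 for Slc4a4, chr3:28447948-28448247 for Slc34a3 and chr17:9238934-9239233 for Slc34a1. The start listed for Slc4a4 lies inside its annotated gene, so it is the start of only some of its transcripts. Capitals mark matches to a TATA box (TATAAA), an HNF1 half-site (GTTAAT), a nuclear receptor half-site (AGGTCA), a GC box (GGGCGG) or an E-box (CACGTG), on either strand, and no matches in these windows share a base.
Slc4a4: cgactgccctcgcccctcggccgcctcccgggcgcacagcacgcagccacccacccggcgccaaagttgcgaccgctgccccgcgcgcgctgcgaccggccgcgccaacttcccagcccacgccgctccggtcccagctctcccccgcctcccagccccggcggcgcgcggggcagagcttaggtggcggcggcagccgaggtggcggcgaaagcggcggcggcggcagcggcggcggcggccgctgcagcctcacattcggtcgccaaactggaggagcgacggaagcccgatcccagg
Slc34a3: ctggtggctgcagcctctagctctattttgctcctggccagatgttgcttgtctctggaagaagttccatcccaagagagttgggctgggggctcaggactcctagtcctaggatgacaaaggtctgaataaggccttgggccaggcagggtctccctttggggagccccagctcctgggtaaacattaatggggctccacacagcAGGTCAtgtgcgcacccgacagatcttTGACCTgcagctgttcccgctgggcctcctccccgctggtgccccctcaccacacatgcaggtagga
Slc34a1: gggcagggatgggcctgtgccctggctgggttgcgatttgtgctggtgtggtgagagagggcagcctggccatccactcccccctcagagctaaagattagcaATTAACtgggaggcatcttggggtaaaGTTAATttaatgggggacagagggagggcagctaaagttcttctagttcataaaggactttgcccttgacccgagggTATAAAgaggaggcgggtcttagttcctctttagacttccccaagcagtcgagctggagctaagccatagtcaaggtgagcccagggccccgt
The Slc4a4 window had a GC content of 78% and no match to the 5 motifs, which says only that these letters are not in it. The Slc34a3 window (58.7% GC) held the nuclear receptor half-site on each strand, a motif found in 16.2% of 33469 promoters of the same length. The Slc34a1 window (54.7% GC) held the TATA box, found in 14.2% of promoters, and the HNF1 half-site on each strand, found in 7.45%. HNF1 is a homeodomain factor of the proximal tubule, and a match to its half-site is a description of the sequence only. Windows were available for 8 of the 10 members, without Slc20a1 and Slc20a2. Among those 8, the nuclear receptor half-site was in Pdzk1 as well, the GC box (33.1% of promoters) in Slc9a3 and Nherf1, and the E-box (6.42%) in Slc9a3 and Slc17a3.

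All values below are log2 processed signal relative to the 75th percentile of the array, so a value of 0 is the signal that 75% of probes lie below. Levels of different probes are not set against each other, because probes differ in how well they bind. Where linear levels of a marker list are summed, the sum is weighted towards its brightest probes and compared only between the groups. All 19 probes were well above background on all 6 arrays and carried no outlier flag. Between 41524 and 41937 of all probes were well above background in the DPG arrays, and between 39556 (control 3) and 43184 (control 2) in the control arrays. Control 3 also had 34 spots with outlier flags, where no other array had more than 4. All DPG arrays lay on one slide and all control arrays on another, so slide and treatment cannot be told apart. Precision is limited by how few arrays there are. With 3 arrays in each group, the smallest two-sided p of an exact permutation test is 0.1.

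Slc34a1 encodes NaPi-2a, the sodium-phosphate cotransporter that carries most of the renal phosphate uptake in rodents. Its brighter probe read 8.51, 8.48 and 8.21 in DPG 1 to 3, against 8.41, 8.51 and 8.61 in controls 1 to 3. DPG 3 was the lowest array, and DPG 1 and 2 lay within the control range. The log2 fold change was -0.11 ± 0.11 (SE from limma, 3 arrays each), with a 95% confidence interval from -0.37 to 0.15 and an adjusted p = 0.709 from limma. The interval spans 0.772-fold to 1.11-fold. The second probe read 6.84, 6.77 and 6.90 in DPG, against 7.01, 6.55 and 6.97 in controls, with a log2 fold change of -0.0042. In that probe DPG 3 was the highest DPG array and control 2 the lowest of all 6, so the low value of DPG 3 was seen in only 1 of the 2 probes.

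Slc34a3 encodes NaPi-2c, the electroneutral relative of NaPi-2a, known in humans as the gene of hereditary hypophosphataemic rickets with hypercalciuria. Its single probe read 4.67, 4.64 and 4.74 in DPG 1 to 3, against 4.998, 4.84 and 5.10 in controls 1 to 3. Every DPG array lay below every control array, and the DPG arrays lay closer together (SD 0.05) than the controls (SD 0.13). The log2 fold change was -0.30 ± 0.09 (SE, 3 arrays each), a linear difference of -18.5% with an interval from 0.703-fold to 0.944-fold. The unadjusted p = 0.0146 and the adjusted p = 0.317 from limma, and the exact permutation p = 0.1 was the smallest the design allows. The unadjusted threshold was also passed with each animal left out, with log2 fold changes from -0.37 (without control 2) to -0.24 (without control 3).

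The log2 ratio of Slc34a3 to Slc34a1 within an array compares the paralogues directly, and was chosen after the values were seen. It was -3.84, -3.84 and -3.47 in DPG, against -3.42, -3.67 and -3.52 in controls. DPG 3 lay among the controls, so the groups overlapped, and the difference of -0.19 had an exact permutation p = 0.3 (adjusted p = 0.36 over 24 such ratios). A difference in response between the 2 paralogues was therefore not shown.

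Slc20a1 and Slc20a2 encode PiT-1 and PiT-2, sodium-phosphate cotransporters of another family that also serve as retrovirus receptors. PiT-1 is present in most cell types, and PiT-2 also sits in the proximal brush border. The brighter Slc20a1 probe read 1.27, 1.40 and 1.25 in DPG, against 1.27, 1.14 and 1.12 in controls. The groups overlapped through control 1, and the log2 fold change was 0.14 ± 0.08 (SE, 3 arrays each; limma adjusted p = 0.537), with 0.11 for the second probe. The brightest of 4 Slc20a2 probes read 3.11, 3.12 and 3.29 in DPG, against 3.18, 3.36 and 3.26 in controls. DPG 3 lay inside the control range, and the log2 fold change was -0.09 ± 0.08 (limma adjusted p = 0.684). The 4 probes of Slc20a2 lay between -0.09 and -0.05. With normexp background correction the Slc20a2 value turned to 0.03. The ratio of Slc20a2 to Slc20a1 within an array differed by -0.23, with overlapping groups and an exact permutation p = 0.2.

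**Figure D1:**
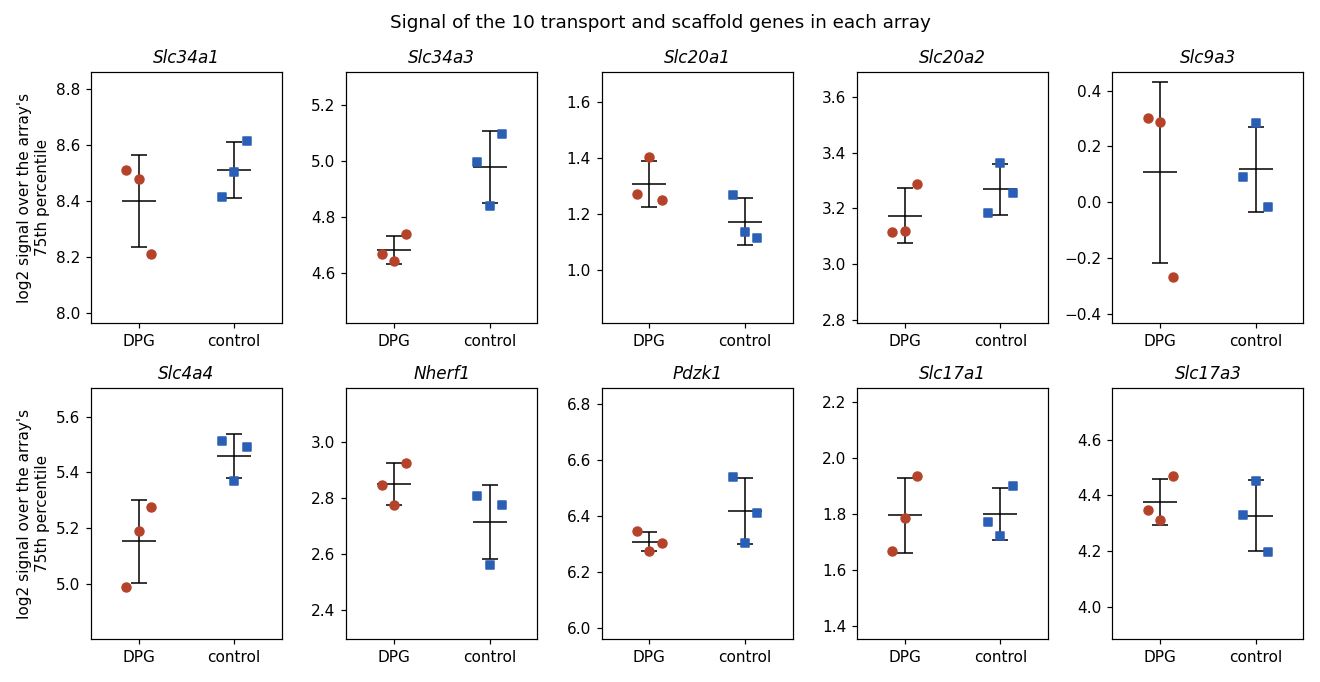
Log2 signal relative to the 75th percentile of the array for each of the 10 genes, with a circle for each DPG array (1 to 3, left to right) and a square for each control array; horizontal lines are group means and bars the SD (n = 3 per group). Every panel spans the same height on the log2 scale. Slc34a3 and Slc4a4 are the panels in which all DPG arrays sit below all controls, and Slc9a3 has the widest spread, with DPG 3 at -0.27.

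Slc4a4 encodes NBCe1, the basolateral exit path of bicarbonate. Its brightest probe read 4.99, 5.19 and 5.28 in DPG 1 to 3, against 5.51, 5.37 and 5.49 in controls 1 to 3. All DPG arrays lay below all controls, with DPG 1 the lowest. The log2 fold change was -0.30 ± 0.10 (SE, 3 arrays each), a linear difference of -19.0% with an interval from 0.686-fold to 0.955-fold. The unadjusted p = 0.0205 and the adjusted p = 0.338 from limma, with an exact permutation p = 0.1.

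The other Slc4a4 probes gave larger differences. Probe A_64_P016548 read 3.37, 3.37 and 3.57 in DPG, against 4.06, 3.81 and 3.94 in controls. Its log2 fold change was -0.50 ± 0.10 (unadjusted p = 0.00225 and adjusted p = 0.242 from limma over every probe). Probe A_44_P445004 read 4.31, 4.42 and 4.60 in DPG, against 4.89, 4.71 and 4.81 in controls, with a log2 fold change of -0.36 ± 0.10. The groups did not overlap in any of the 3 probes, which read the same RNA samples and are not replicates. With the mean of the 3 probes in place of the brightest, the log2 fold change was -0.39, and with normexp background correction of the brightest it was -0.20. Slc4a4 was past the unadjusted threshold with either. It was no longer past it without DPG 1 (-0.22), without control 1 (-0.28) or without control 3 (-0.29). Counted by probe, 4 of the 19 member probes passed an unadjusted p of 0.05, against 12.4% of all 40383 probes: the 3 of Slc4a4 and that of Slc34a3.

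Slc9a3 encodes NHE3, the apical exchanger that starts bicarbonate recovery. Its brightest probe read 0.30, 0.29 and -0.27 in DPG 1 to 3, against 0.09, 0.28 and -0.02 in controls 1 to 3. DPG 3 was the lowest of all arrays, and DPG 1 and 2 the highest. The log2 fold change was -0.01 ± 0.18 (SE, 3 arrays each; limma adjusted p = 0.986), with an interval from -0.45 to 0.43, the widest among the members. It was 0.18 without DPG 3 (limma unadjusted p = 0.175). Its other probes gave 0.07 and -0.10, so Slc9a3 was the one gene among the 5 with several probes whose probes differed in sign. The log2 ratio of Slc4a4 to Slc9a3 within an array, basolateral over apical, was 4.69, 4.90 and 5.54 in DPG, against 5.42, 5.08 and 5.51 in controls. The groups overlapped (exact permutation p = 0.4), and a difference in response between these genes was not shown.

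**Figure D2:**
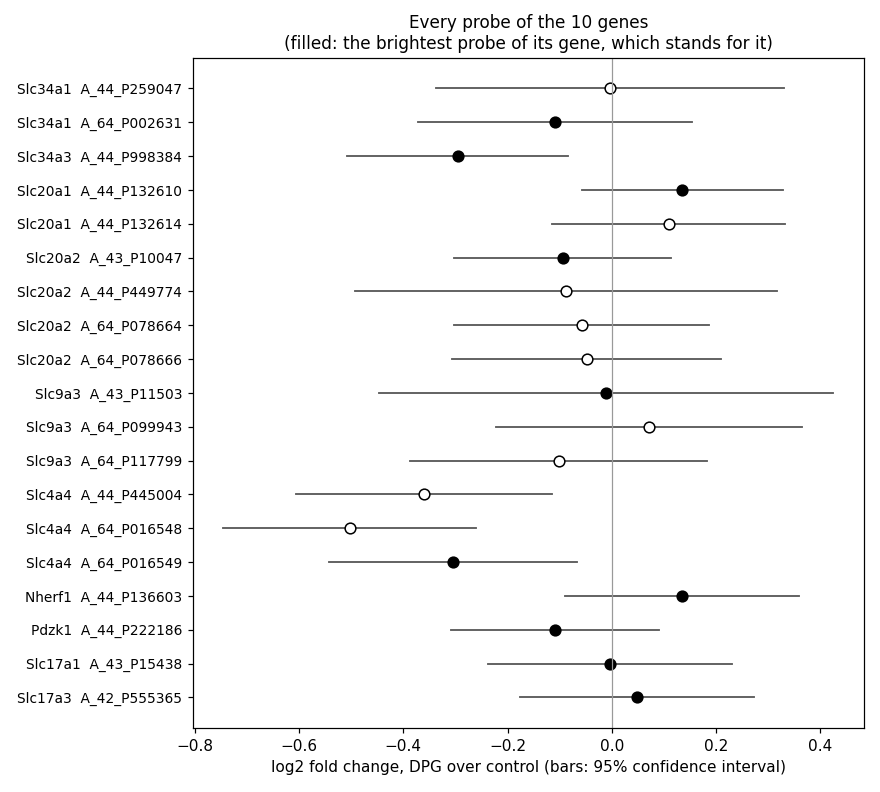
Log2 fold change, DPG over control, of each of the 19 probes with its 95% confidence interval from limma over all probes; filled points stand for their gene. The intervals of the 3 Slc4a4 probes and of the Slc34a3 probe lie below 0, and the other 15 intervals include 0.

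The scaffold genes lay on opposite sides of 0. Nherf1 encodes a protein with PDZ domains that binds NaPi-2a and NHE3 and links them through ezrin to the actin core of the microvillus. It read 2.85, 2.77 and 2.93 in DPG, against 2.81, 2.56 and 2.77 in controls, a log2 fold change of 0.13 ± 0.09 (SE, 3 arrays each; limma adjusted p = 0.596). Pdzk1, which binds the same carriers and others of the brush border, read 6.34, 6.28 and 6.30 in DPG, against 6.54, 6.30 and 6.41 in controls, a log2 fold change of -0.11 ± 0.08 (adjusted p = 0.624). Each gene alone overlapped between the groups. With normexp background correction Pdzk1 read -0.20 (limma unadjusted p = 0.0287). The log2 ratio of Pdzk1 to Nherf1 within an array did not overlap, at 3.50, 3.50 and 3.38 in DPG, against 3.73, 3.74 and 3.64 in controls. Its difference of -0.24 had the smallest exact permutation p = 0.1 that the design allows (adjusted p = 0.218 over 24 ratios), so it did not pass.

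Slc17a1 and Slc17a3 encode NPT1 and NPT4, first described as phosphate transporters and now known mainly as carriers of urate and other organic anions. Slc17a1 read 1.67, 1.78 and 1.94 in DPG, against 1.77, 1.72 and 1.90 in controls. Its DPG arrays spanned the whole control range, and the log2 fold change was -0.0031 ± 0.10 (SE, 3 arrays each; limma adjusted p = 0.993). The interval ran from -0.24 to 0.23, and the sign turned in 5 of 17 alternatives, median scaling (0.01) and normexp (0.04) among them. Slc17a3 read 4.35, 4.31 and 4.47 in DPG, against 4.33, 4.45 and 4.20 in controls, a log2 fold change of 0.05 ± 0.09 (adjusted p = 0.856) with overlapping groups.

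The members did not share one pattern over the arrays. Within the DPG group, DPG 3 was the highest array for 6 members and the lowest for 3 (Slc34a1, Slc20a1 and Slc9a3). Within the controls, control 2 was the lowest array for 5 members and the highest for 3. The SD within a group ran from 0.03 (Pdzk1 in DPG) to 0.32 (Slc9a3 in DPG), with a median of 0.10.

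Markers of nephron segments, the proximal tubule among them, differed between the same arrays. Of 48 measured marker genes over all cell types, 0 passed the adjusted threshold in limma and 20 an unadjusted p of 0.05 (41.7%, against 12.4% of all features), 13 higher and 7 lower in DPG. The marker lists were chosen with earlier results of these data known, so their shares do not come from a blind choice. The convoluted proximal tubule markers (8 of 8 measured) had 7 genes below 0 with a median log2 fold change of -0.26. Of the 8, 3 were lower at an unadjusted p of 0.05 (37.5%, against 5.7% of all features). Averaged over the list, their shift from the control mean was -0.23, -0.23 and -0.16 in DPG 1 to 3, against 0.10, -0.10 and 0.0017 in controls 1 to 3. Their summed linear level ran from 711.1 to 734.8 times the 75th percentile in DPG, against 734.6 to 842.3 in controls, so the sums overlapped narrowly. The straight proximal tubule markers (7 of 7 measured) had 6 genes above 0 and a median of 0.43. All 6 were higher at that p (85.7% of the list, against 6.68% of all features). Their shift was 0.55, 0.44 and 0.39 in DPG, against -0.21, 0.06 and 0.16 in controls, with summed levels from 919 to 975 in DPG and from 599 to 760 in controls. The 4 thick ascending limb markers were all above 0, with a median of 0.36, and 3 were higher at that p (75%, against 6.68% of all features). Their summed level ran from 624 to 674 in DPG and from 516 to 558 in controls. In pieces of tissue, fewer cells of a type and less RNA per cell cannot be told apart.

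Set against these lists within each array, the members gave different values, in ratios chosen after the values were seen. Relative to the convoluted markers, Slc34a3 differed by -0.09 and Slc4a4 by -0.10, with overlapping groups (exact permutation p = 0.2 and 0.3). Every ratio to this list carries the mean shift of the convoluted markers themselves, -0.21 in DPG. By arithmetic each therefore lies above the log2 fold change of its gene alone, which was -0.30 for both of these genes. In the same scale Slc20a1 had 0.34 (0.14 alone) and Nherf1 0.34 (0.13 alone). Slc17a1 had 0.21 (-0.0031 alone) and Pdzk1 0.10 (-0.11 alone). Each was without overlap at the smallest exact permutation p = 0.1 (adjusted p = 0.218 over 24 ratios), so none passed. These values do not show that these members were themselves higher in DPG. Relative to the straight markers all 10 members lay lower in DPG, from -0.32 (Slc20a1) to -0.76 (Slc4a4 and Slc34a3). The groups overlapped for 4 of them (Slc20a1, Slc9a3, Nherf1 and Slc17a3, exact permutation p = 0.2) and not for the other 6 (exact permutation p = 0.1, adjusted p = 0.218 over 24 ratios), so none passed. The ratios to the straight markers also carry the mean shift of those markers themselves, 0.46 in DPG, which is above the log2 fold change of every member. How many of all features had no overlap in ratios to either list was not computed. The counts without overlap in these ratios therefore have no background share. The part of these segment markers in the results of Slc34a3 and Slc4a4 was not tested further.

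**Figure D3:**
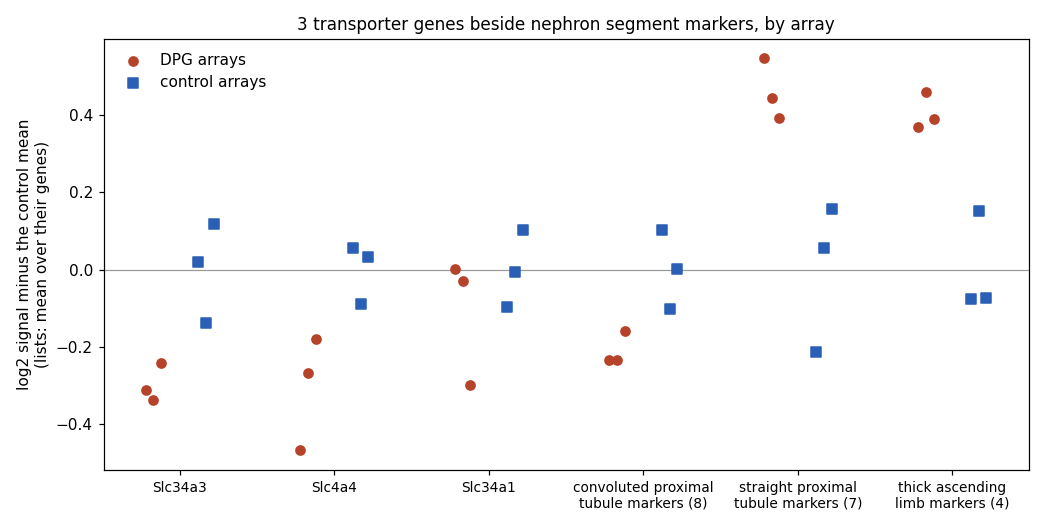
Log2 signal minus the control mean for Slc34a3, Slc4a4 and Slc34a1 and for the mean of 3 nephron segment marker lists, with a circle for each DPG array and a square for each control array. Slc34a3, Slc4a4 and the convoluted tubule markers have all DPG arrays below all controls, while the straight tubule and thick ascending limb markers have them above.

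The label of the tissue was checked against markers. Proximal tubule, podocyte and distal markers were above background. Of the inner medullary markers, 2 of 3 probes of the urea transporter gene Slc14a2 were not above background on any array, while 4 of 6 probes of the aquaporin gene Aqp4 passed the filter. Aqp4 read -0.42, -0.16 and -0.26 in DPG, against -0.54, -0.65 and -0.51 in controls, without overlap (log2 fold change 0.29 ± 0.09, limma adjusted p = 0.332). Of the adrenal cortex markers, Cyp11b1 and Star were not above background on any array, and Cyp17a1 was above it on all 6. Cyp17a1 read -3.12, -3.23 and -3.19 in DPG, against -2.78, -2.79 and -2.71 in controls, also without overlap (-0.41 ± 0.07, limma adjusted p = 0.214). All 4 podocyte markers lay below 0, with a median of -0.17. Nphs1 (-0.28) and Wt1 (-0.19) were lower at an unadjusted p of 0.05 (50%, against 5.7% of all features) without overlap. The podocyte sums still overlapped, from 24.0 to 30.5 in DPG and from 25.4 to 32.9 in controls. Of the adipocyte markers (2 of 3 measured), Fabp4 had 1.89 ± 0.70 with overlapping groups and Adipoq had -0.45 ± 0.14 without overlap (limma adjusted p = 0.379 and 0.338). Their summed level ran from 0.909 to 1.32 in DPG and from 1.13 to 1.51 in controls. Summed levels of the collecting duct markers (4 of 5 measured) ran from 109 to 151 in DPG and from 105 to 139 in controls, and those of leukocyte markers (4 of 4) from 28.2 to 42.5 in DPG and from 31.0 to 40.1 in controls, so both overlapped. All 4 leukocyte markers lay above 0, with a median of 0.16, and Cd74, the brightest in the sum, had 0.0074. Only Cd3e was higher at an unadjusted p of 0.05 (25%, against 6.68% of all features). It is a dim probe with overlapping groups (0.89 ± 0.34, limma adjusted p = 0.386). The part of these other cell types in the results of the members was not tested.

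Beyond the members, 53 of 58 listed genes of phosphate and acid-base handling were measured, in lists also chosen with earlier results known. None passed the adjusted threshold, and at an unadjusted p of 0.05 there were 8 (15.1%, against 12.4% of all features), 2 higher and 6 lower in DPG. Their median log2 fold change was 0.01. That count was 4 without DPG 1, 13 without DPG 3 and 5 without control 1. The count over all 29647 features moved as well. It was 3669 in the main fit, 2537 without DPG 1, 3914 without DPG 3 and 2632 without control 1. There was no overlap between the groups for 13 of the 53 (24.5%, against 19.7% of all features).

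Of 12 measured hormone and sensor genes, 1 was lower at an unadjusted p of 0.05 (8.33%, against 12.4% of all features in either direction) and 11 were not past it. This was Vdr, the receptor of active vitamin D, with -0.22 ± 0.09 (SE, 3 arrays each; limma adjusted p = 0.4) and overlapping groups. Casr, the calcium-sensing receptor gene, had 0.23 ± 0.10 (adjusted p = 0.439). The receptor genes of the hormones that govern phosphate uptake were named for their role after their values were seen. Pth1r, the parathyroid hormone receptor gene, read 4.22, 4.22 and 4.74 in DPG, against 4.64, 4.51 and 4.61 in controls, with DPG 3 above every control. Its log2 fold change was -0.20 ± 0.16 (adjusted p = 0.638). Kl, which encodes the FGF23 co-receptor Klotho, had -0.11 ± 0.09 (adjusted p = 0.678). Among the FGF receptor genes, Fgfr1 had -0.02 ± 0.09 (adjusted p = 0.936), Fgfr3 0.09 ± 0.12 (adjusted p = 0.798) and Fgfr4 0.16 ± 0.11 (adjusted p = 0.592).

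Of 9 measured genes of signalling behind the parathyroid hormone receptor, 0 passed an unadjusted p of 0.05 in limma (0%, against 12.4% of all features in either direction). The groups did not overlap for 2 of the 9 (22.2%, against 19.7% of all features). The smallest p values were those of the phospholipase C gene Plcb1 (-0.41 ± 0.18, SE, adjusted p = 0.432) and the adenylyl cyclase gene Adcy6 (0.15 ± 0.09, adjusted p = 0.529). The 3 probes of Plcb1 ran from -0.41 to -0.14. Of 8 apical scaffold partners, 1 was past it (12.5%, against 12.4% of all features in either direction). Dab2, the endocytic adaptor of the brush border receptor megalin, read 4.02, 4.24 and 4.27 in DPG, against 4.76, 4.51 and 4.58 in controls. Its groups did not overlap, with a log2 fold change of -0.44 ± 0.11 (adjusted p = 0.271) and -0.37 in its second probe. Ezr, the ezrin gene, had -0.15 ± 0.07 (adjusted p = 0.461).

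Of 15 measured other acid-base genes, 3 were lower and 1 higher at an unadjusted p of 0.05 (26.7% in either direction, against 12.4% of all features). Car4 and Car14 encode the membrane-bound carbonic anhydrases that act on filtered bicarbonate in the lumen. Car4 read 4.77, 4.76 and 4.66 in DPG, against 5.02, 5.20 and 4.92 in controls, and Car14 read 2.14, 2.21 and 2.45 in DPG, against 2.67, 2.51 and 2.51 in controls. Neither overlapped, and their log2 fold changes were -0.32 ± 0.09 and -0.29 ± 0.11 (SE, 3 arrays each; limma adjusted p = 0.317 and 0.368). The proton pump subunit gene Atp6v1b2 had -0.32 ± 0.09 (adjusted p = 0.319). The bicarbonate cotransporter gene Slc4a7 read -3.23, -2.84 and -3.95 in DPG, against -4.28, -4.06 and -4.68 in controls, a dim probe with a log2 fold change of 1.00 ± 0.31 (adjusted p = 0.331). The cytosolic carbonic anhydrase gene Car2, named for its role after its values were seen, had 0.05 ± 0.07 (adjusted p = 0.799).

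Of 9 other phosphate and urate carriers, 1 was higher and 1 lower at an unadjusted p of 0.05 (22.2% in either direction, against 12.4% of all features). Slc34a2, the third member of the NaPi-2 family, known from lung and intestine, read -1.82, -2.17 and -2.09 in DPG, against -2.85, -2.25 and -2.62 in controls. Its log2 fold change was 0.55 ± 0.18 (SE, 3 arrays each; limma adjusted p = 0.341), with 0.26 in its second probe. Slc17a4, a relative of Slc17a1 and Slc17a3, had -0.54 ± 0.15 (adjusted p = 0.308), and its 3 probes lay between -0.60 and -0.54.

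**Figure D4:**
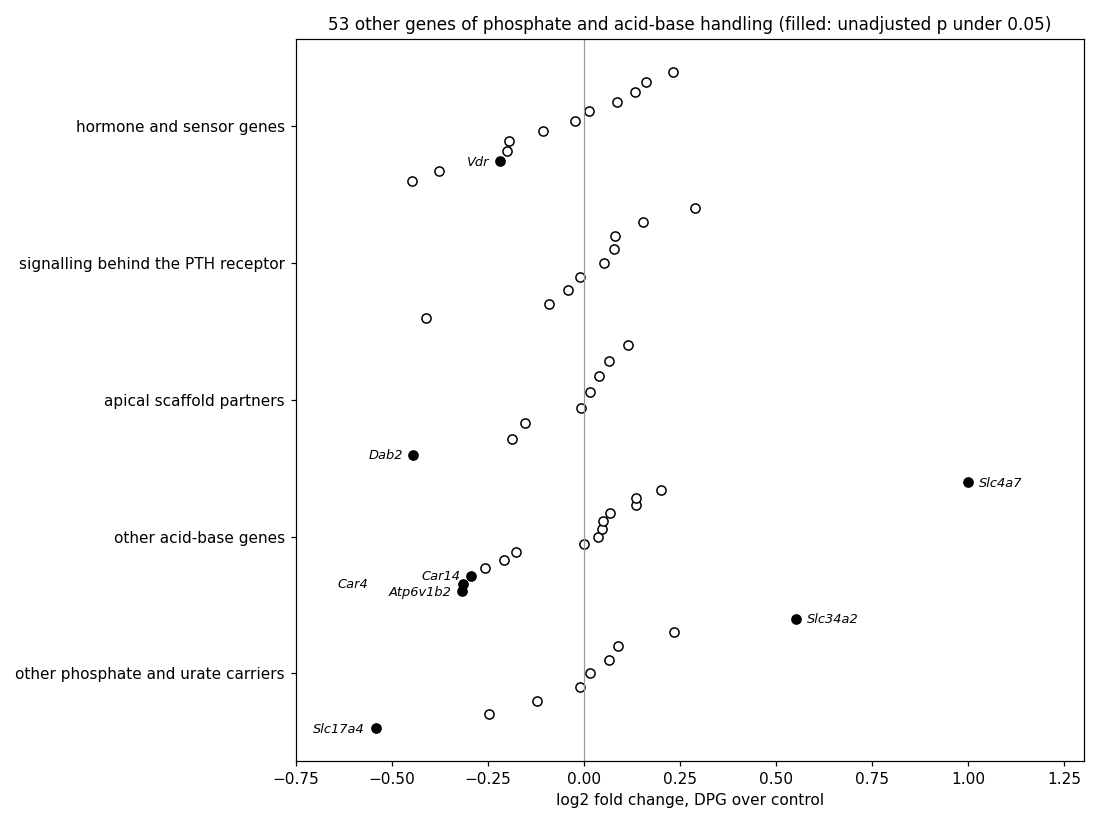
Log2 fold change, DPG over control, of the 53 measured genes in the 5 lists of phosphate and acid-base handling, sorted within each list; filled points passed an unadjusted p of 0.05 and none passed the adjusted threshold. The values lie on both sides of 0 in every list, between -0.54 (Slc17a4) and 1.00 (Slc4a7).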

How the data were processed

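Total RNA from renal cortex was labelled with Cy3 and hybridised to single-colour arrays, per the labels' protocols. The deposited scanner intensity is spot signal after background subtraction and detrending by Agilent Feature Extraction (10.7.1.1 per the file headers, 10.7 per the submitters' processing notes). The deposited series-wide table gives each processed signal as a ratio to roughly the 75th percentile on that array, with column medians of 0.111, 0.108 and 0.112 (DPG 1 to 3) and 0.110, 0.111 and 0.114 (controls 1 to 3). It is linear, not centred per gene, and served as an alternative.

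Control spots were left out. Log2 processed signal had the 75th percentile of each array subtracted. Probes well above background on all 3 arrays of a group were kept (40406), less 23 with an outlier flag. Probes were named through RefSeq accessions without versions on GRCr8 (28206 probes, 15645 symbols), and the brightest kept probe stood for a gene. The DPG-control contrast was fitted in limma 3.58.1 (R 4.3.3; two-sided, 4 residual and 1.95 prior degrees of freedom), with Benjamini-Hochberg adjustment over 29647 features. Errors are standard errors unless called SD. The fit was tested on simulated data. The members and lists were chosen with earlier results of these data known. The naming rule took all members and their probes, and pathway genes past an unadjusted p of 0.05 or among the smallest p values of their list. The alternatives changed the background correction (normexp, offset 50, on median pixel signals), the scaling, the filter on dim or flagged probes, the choice among probes, the variance model, array weights, the replicate block, the source of values, and left out each animal in turn.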

Additional observations from a re-analysis of the deposited data

How the results depend on the processing

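In all, 18 alternatives were run, 6 of them with an animal left out. The set tested ran from 28162 features (well above background on all 6 arrays) to 45408 (no filter on dim probes), against 29647. Slc34a1, Slc34a3, Slc20a1, Slc4a4, Nherf1 and Pdzk1 kept their sign in all 17 that give a value per gene. The sign turned for Slc20a2 with normexp (0.030, from -0.094). It turned for Slc9a3 with median scaling (0.0037) and array weights (0.031), from -0.011. For Slc17a1 it turned with normexp (0.045) and median scaling (0.012), from -0.0031. With an animal left out, Slc9a3 ran from -0.11 to 0.18, Slc17a1 from -0.073 to 0.061 and Slc17a3 from -0.016 to 0.11. The cause was not tested. The count of features past the adjusted threshold ran from 0 to 1 with an animal left out, that of members past an unadjusted p of 0.05 from 1 to 2, and that of pathway genes from 4 to 13. Over all features the count past an unadjusted p of 0.05 ran from 2537 to 3914 in those settings, against 3669 in the main fit. Every probe on its own gave 4 of 19 member probes and 20 of 104 pathway probes, against 5008 of all 40383 probes (12.4%), which counts probes. An intensity trend with robust variance gave 14 pathway genes of 53, and 3810 of all 29647 features. Deviations of same-numbered animals of the groups had correlations of -0.02, -0.09 and -0.07, and those of other pairs ran from -0.06 to 0.13. No pairing by number was shown. With deviations centred within groups of 3, this check cannot exclude one. With the replicate number as a block, 0 features passed the adjusted threshold, 2987 passed an unadjusted p of 0.05, 2 members did and 4 pathway genes did. A slide block could not be fitted.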
